A study of Bos taurus with 8 samples.

Results

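Complement is a system of plasma and cell surface proteins that tags cells and particles and can open pores in membranes. The classical route starts with the proteases C1R and C1S, the lectin route with MASP proteases that travel with sugar-binding lectins, and the alternative route with CFB and CFD, and all of them meet at the cleavage of C3. The inhibitor SERPING1 blocks the starting proteases, CFI cuts the active fragments of C3 and C4, and C7 belongs to the complex that inserts into membranes. The liver supplies most of these proteins to plasma, but fibroblasts, leukocytes and many epithelia also make some of them.

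The 9 genes described here were MASP1, C1R, C1S, C3, C7, CFB, CFI, CFD and SERPING1. They were chosen by their signals on the arrays described here, in cattle stem-like cells grown from embryos (eSLCs) and in SCs, the study's somatic cells, so their levels and their differences between eSLCs and SCs are given as a description with no test. A probe was named through its transcript identifier for 8 of the 9 genes, of 12603 genes named on the array. C1R had no probe named in this way and has no value here. C7 was not well above background on any of the 8 arrays, which left 7 of the 9 genes among the 10956 genes tested, which had to be well above background on both arrays of a condition.

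RNA of 8 samples of HanWoo cattle was hybridized with 1 dye to 8 bovine oligo microarrays. The eSLCs grow as colonies from zona-free blastocysts on inactivated murine STO feeder cells, in a serum-free medium with inhibitors of MEK (PD184352), the FGF receptor (SU5402) and GSK3 (CHIR99021). The 6 eSLC samples came from in vitro produced (IVP) embryos for the lines I2 (passage 35) and I9 (passage 30), from nuclear transfer (NT) embryos for N2 (passage 36) and N7 (passage 30), and from parthenogenetic (PA) embryos for P1 (passage 31) and P4 (passage 36). SCs at passages 5 and 10 (SC P5 and SC P10) grew in DMEM with 10% serum, so that cell type, medium, feeder cells and passage all differ between eSLCs and SCs and cannot be told apart. The labels do not name the tissue of the SCs, each line is 1 array, and nothing says that the SC samples came from separate cultures, so p-values measure only the spread between these samples. Because cells were measured in bulk, fewer cells of a type and less RNA per cell cannot be told apart.

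Signals are given with the 75th percentile of each array set to 1000 and raised to a common floor of 13.3, the highest value among the arrays of the lowest signal well above background. A signal at the floor is therefore an upper limit. The 75th percentile of the arrays lay between 1192 and 4092 scanner units. It exceeded the lowest signal that counted as detected by 75.3 to 136.3 times, with 71.19 to 76.71% of spots well above background. Signals of different genes come from different probes and are not compared with each other.

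Of the 7 measured genes, C3, CFI, CFD and SERPING1 were higher and MASP1, C1S and CFB were lower in eSLCs. On its brightest probe each gene differed by at least 2-fold, with no overlap between the 6 eSLC arrays and the 2 SC arrays. Over all genes tested, 20.8% differed upward in eSLCs by this rule and 16.4% downward. The counts of 4 and 3 genes were fixed by the way the genes were chosen, and nothing is read from them. The median difference over all genes tested was 0.23 on the log2 scale.

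**Figure D1:**
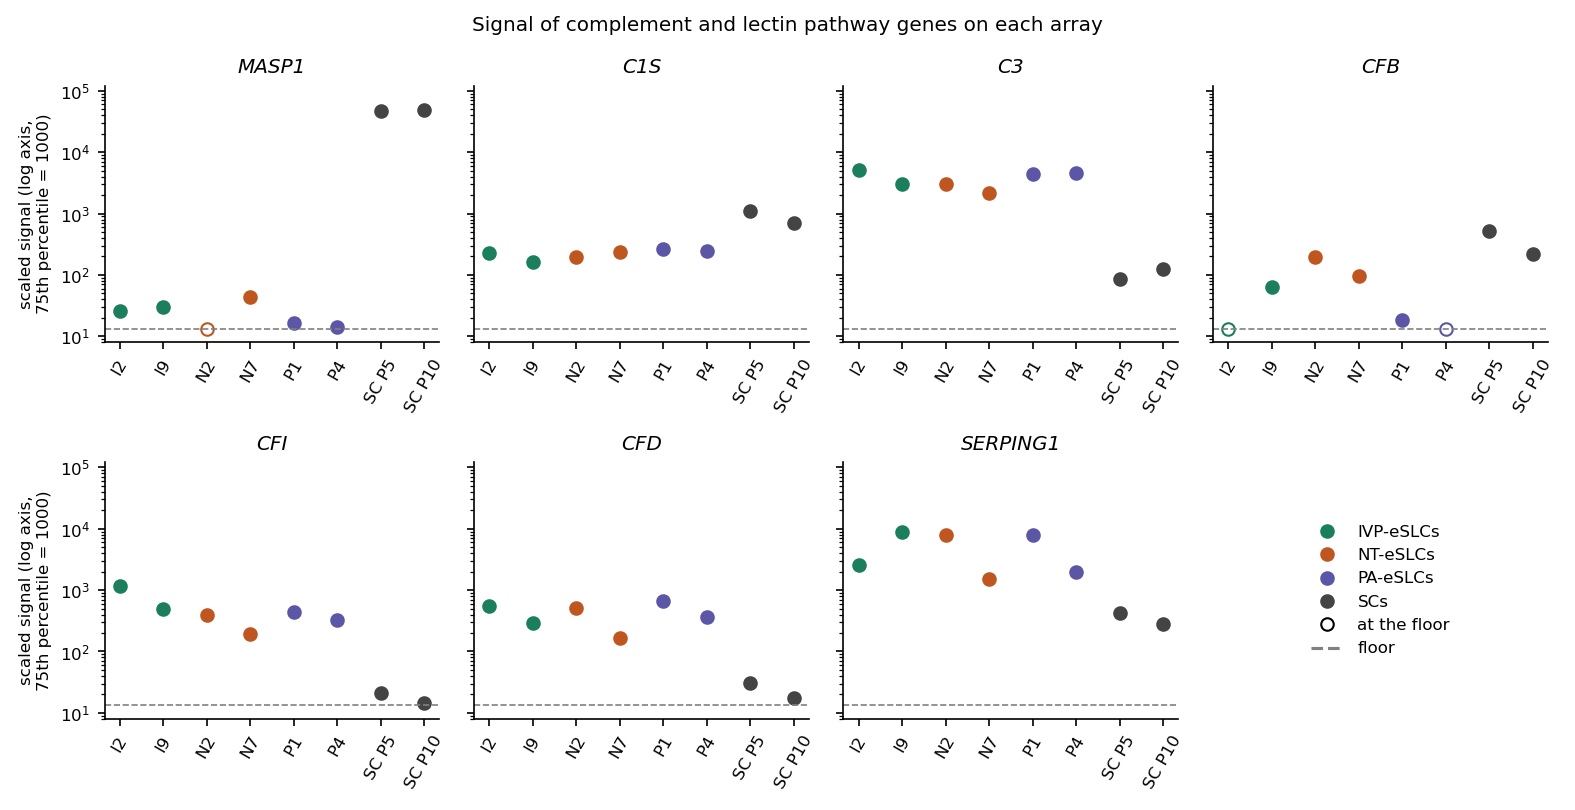
Scaled signal (log axis, 75th percentile of each array = 1000) of 7 complement and lectin pathway genes on each of the 8 arrays, with 1 point per array coloured by condition, open points at the floor and the floor of 13.3 as a dashed line. MASP1, C1S and CFB lie below the SC arrays in every eSLC line, and C3, CFI, CFD and SERPING1 lie above them.

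MASP1 encodes a serine protease that binds mannose-binding lectin, ficolins and collectins and starts the lectin route. Its signal was 46321 in SC P5 and 49608 in SC P10. In eSLCs it was 25.6 in I2, 30.2 in I9, 43.0 in N7, 16.4 in P1 and 14.2 in P4, and N2 was not well above background and lay at the floor. Both SC arrays were thus far above all lines, and the highest line, N7, was 10.07 below the lower SC array on the log2 scale. The mean difference of eSLCs from SCs was -11.11 on the log2 scale, a 2213-fold lower level, and the SD of log2 signals was 0.68 among the lines (n = 6) and 0.07 between the SC arrays (n = 2). Since the lines lay close to the floor, the size of this difference depends on the floor and on the background subtraction. The difference was -9.57 with the normexp background correction. With the processed signal of the scanner software, out of step with the other signals on 6 arrays, it was -3.11. MASP1 had 1 probe on the array.

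C1S encodes the protease that cuts C4 and C2 in the classical route. SC P5 had a signal of 1108 and SC P10 of 692. The lines lay close together, at 224 in I2, 163 in I9, 194 in N2, 236 in N7, 267 in P1 and 250 in P4. All lines were lower than both SC arrays, by -2.00 on the log2 scale or 3.99-fold, with an SD of 0.26 among the lines and 0.48 between the SC arrays. All 3 probes of C1S were lower in eSLCs, with log2 differences from -3.61 to -2.00, and the brightest probe gave the smallest difference. With the processed signal, which was out of step with the other signals on 6 arrays, the difference of C1S was 0.45, in the other direction. C1R, the partner protease that activates C1S, is the next protein-coding gene beside C1S in the cattle RefSeq table, and it was not analysed here.

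SERPING1 encodes C1 inhibitor, the serpin that inactivates C1R, C1S and the MASP proteases. Its signal was 427 in SC P5 and 283 in SC P10. Lines I9, P1 and N2 had signals of 8889, 8045 and 7822, and lines I2, P4 and N7 had signals of 2609, 1980 and 1495. The lines thus fell apart into higher and lower levels within every embryo origin, since each origin has a line in both. All lines were above the SC arrays, with a mean difference of 3.54 on the log2 scale or 11.6-fold, an SD of 1.16 among the lines and an SD of 0.42 between the SC arrays. All 4 probes were higher in eSLCs, by 2.58 to 3.54 on the log2 scale.

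C3 encodes the central component whose cleavage all routes share. SC P5 had a signal of 86.9 and SC P10 of 123. In eSLCs the signal was 5084 in I2, 3051 in I9, 2981 in N2, 2167 in N7, 4434 in P1 and 4525 in P4. Every line was well above the SC arrays, and the lowest line, N7, was 4.13 above the higher SC array on the log2 scale. The mean difference was 5.10 on the log2 scale or 34.3-fold, and the SD was 0.47 among the lines and 0.36 between the SC arrays. C3 had 10 probes, of which 9 were well above background on at least 1 array. All 9 were higher in eSLCs, 7 of them by at least 2-fold, and the log2 differences ran from 0.23 to 5.10. The probes with the smaller differences were dim, and 4 of the 9 were not well above background on either SC array, so that their differences are set in part by the floor.

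CFB encodes the protease of the alternative route's C3 convertase. It had a signal of 517 in SC P5 and 218 in SC P10. Among the lines it was 194 in N2, 95.6 in N7, 63.9 in I9 and 18.2 in P1, and I2 and P4 lay at the floor. On this brightest probe the groups did not overlap, but N2 was only 0.17 below SC P10 on the log2 scale. The mean difference was -3.09 on the log2 scale or 8.49-fold lower, with an SD of 1.65 among the lines and 0.88 between the SC arrays, so the spread among the lines was wide. The difference was -2.46 without SC P5 and -3.71 without SC P10, and since I2 and P4 were at the floor its size is also limited by the floor. The CFB difference was -2.02 with the normexp background correction and -1.40 with the mean of all probes. Of 4 probes, 3 were above background on at least 1 array, and their log2 differences were -3.09, -2.20 and -0.32, the last with signal above background on 1 SC array and no eSLC array. On the probe with -2.20, N2 had 139 and SC P10 had 126, so the groups overlapped.

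CFD encodes factor D, the protease that cuts CFB once it is bound to C3b and that is best known as the adipocyte product adipsin. Its signal was 30.2 in SC P5 and 17.6 in SC P10. In eSLCs it was 547 in I2, 291 in I9, 512 in N2, 167 in N7, 669 in P1 and 363 in P4. All lines were higher than the SC arrays, and the mean difference was 4.07 on the log2 scale or 16.8-fold, with an SD of 0.73 among the lines and 0.55 between the SC arrays. With normexp the difference was 2.69. The 2 probes of CFD disagreed in size. On the dimmer probe the lines had signals from 35.2 to 77.8 and the SC arrays 28.2 and 39.2, so the groups overlapped, and the log2 difference was 0.58.

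CFI encodes factor I, a protease that inactivates C3b and C4b with the help of cofactors. Its signal was 20.9 in SC P5 and 14.3 in SC P10, both near the floor. In eSLCs it was 1174 in I2, 497 in I9, 399 in N2, 196 in N7, 437 in P1 and 324 in P4. The lines were all above the SC arrays, with a mean difference of 4.64 on the log2 scale or 25.0-fold, an SD of 0.85 among the lines and 0.39 between the SC arrays. The difference was 2.90 with the normexp background correction and 3.57 with the mean of all probes. The other 3 probes of CFI were well above background on all 6 eSLC arrays and on neither SC array. Measured against the floor on the SC arrays, they were at least 33.0-fold, 5.96-fold and 4.06-fold higher in eSLCs. C7, from the terminal route, had 1 probe, which was not well above background in either group.

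**Figure D2:**
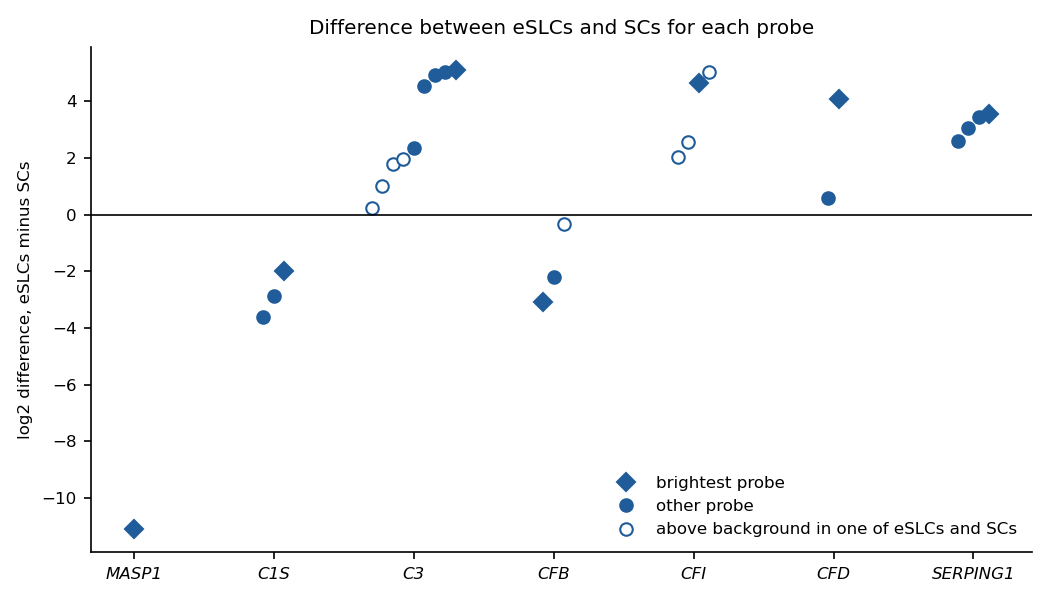
Log2 difference of eSLCs minus SCs for each probe of the 7 measured genes that was well above background on at least 1 array. Diamonds are the brightest probe of a gene, circles are its other probes, and open circles are probes above background in one of eSLCs and SCs only. No gene has probes on both sides of 0, and the CFD probes lie at 0.58 and 4.07.

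The arrays lay on 2 slides, with SC P5, N7, I9 and I2 on slide 1 and SC P10, P4, P1 and N2 on slide 2. Within slide 1 the log2 differences of eSLCs from SCs were -10.49 for MASP1, -2.43 for C1S, 5.21 for C3, -3.58 for CFB, 4.53 for CFI, 3.31 for CFD and 2.93 for SERPING1. Within slide 2 they were -11.73 for MASP1, -1.56 for C1S, 4.99 for C3, -2.60 for CFB, 4.75 for CFI, 4.83 for CFD and 4.14 for SERPING1. Every gene kept its sign on both slides, with 1 SC array on each.

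The comparison between embryo origins asks whether the way the embryo was made goes with the level of a gene. The genes were chosen by signals that include those of the lines, so the p-values of the members are description only. It was tested with limma over all genes, and 0 of 10956 genes were called between NT- and IVP-eSLCs (0%) and 0 between PA- and IVP-eSLCs (0%), where 306 and 568 genes had an unadjusted p under 0.05. Of the 7 genes, CFB and CFI had an unadjusted p under 0.05 between NT- and IVP-eSLCs, and none did between PA- and IVP-eSLCs. With 2 arrays per condition and no gene called at any size, the absence of calls says little about the members. Both IVP lines were on slide 1 and both PA lines on slide 2, so without a block their differences are also differences between slides. NT-eSLCs and SCs were on both slides. With the slide as a block 0 of the 7 genes were called in either comparison.

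For CFB, the geometric mean signal was 136 in NT-eSLCs, 29.1 in IVP-eSLCs, 15.6 in PA-eSLCs and 336 in SCs. Its difference of NT- from IVP-eSLCs was 2.23 ± 0.83 (SE) on the log2 scale, and in limma the unadjusted p was 0.037 and the adjusted p 1. I2, an IVP line, and P4, a PA line, were at the floor for CFB, so the size of these differences depends on the floor. CFI had a different order, with 764 in IVP-eSLCs, 377 in PA-eSLCs, 279 in NT-eSLCs and 17.3 in SCs, and the difference of NT- from IVP-eSLCs was -1.45 ± 0.53 (SE) on the log2 scale (limma, unadjusted p = 0.035, adjusted p = 1). Both NT lines were below both IVP lines for CFI and above both for CFB.

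For C3 the geometric mean signal was 4480 in PA-eSLCs, 3939 in IVP-eSLCs and 2541 in NT-eSLCs, against 104 in SCs, and NT- differed from IVP-eSLCs by -0.63 ± 0.33 (SE) on the log2 scale. PA- differed from IVP-eSLCs by 0.19 ± 0.33. CFD had the same order, with 493 in PA-eSLCs, 399 in IVP-eSLCs, 292 in NT-eSLCs and 23.0 in SCs. These neighbours in the order of the eSLC conditions did not differ beyond the test's threshold.

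SERPING1 had a geometric mean signal of 4816 in IVP-eSLCs, 3991 in PA-eSLCs and 3419 in NT-eSLCs, against 348 in SCs, and its SE of 1.07 on the log2 scale between origins was the widest of the 7 genes. MASP1 had 27.8 in IVP-eSLCs, 23.9 in NT-eSLCs and 15.3 in PA-eSLCs, all near the floor. C1S had 258 in PA-eSLCs, 214 in NT-eSLCs and 191 in IVP-eSLCs, against 876 in SCs. The adjusted p of the 7 genes between PA- and IVP-eSLCs lay between 0.851 and 1.

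Among the 6 lines, the genes differed in how far they spread. The range of log2 signals was 3.87 for CFB, 2.59 for CFI, 2.57 for SERPING1, 2.00 for CFD, 1.70 for MASP1, 1.23 for C3 and 0.71 for C1S, where the median range over all genes tested was 0.93. A smaller range than that of CFB was seen in 97.0% of the genes tested, and a smaller range than that of C1S in 33.2%. N7 was the lowest line for all 4 genes that were higher in eSLCs than in SCs. Against the median of the other lines, N7 was lower by -1.03 for C3, -1.16 for CFI, -1.62 for CFD and -2.39 for SERPING1 on the log2 scale. For SERPING1 the lower level was shared with P4, at -1.98, and I2, at -1.58. I2 was the highest line for C3 and CFI, 1.56 above the median of the other lines for CFI.

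**Figure D3:**
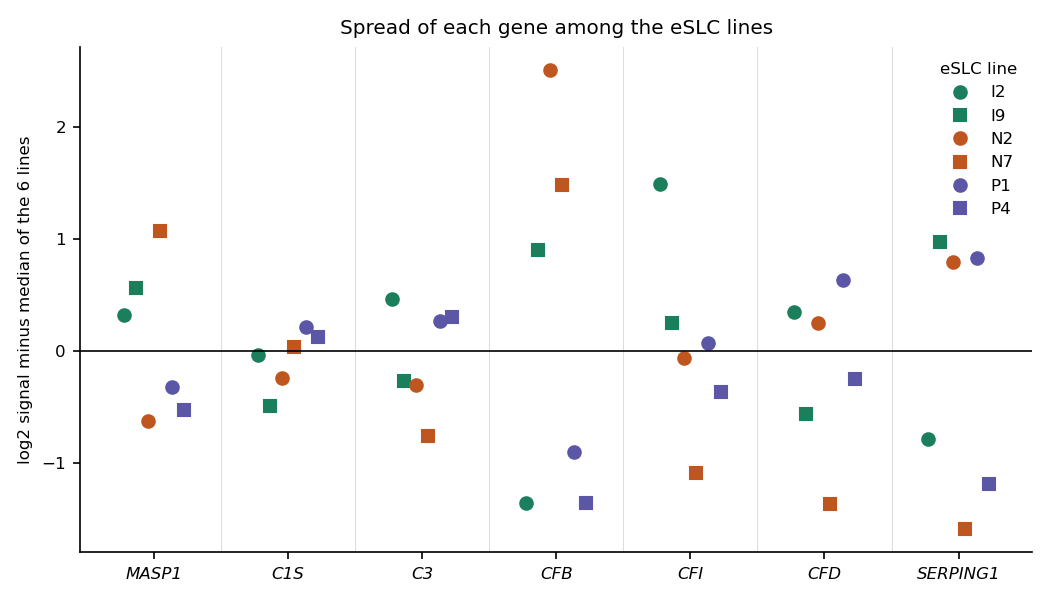
Log2 signal of each eSLC line minus the median of the 6 lines, for 7 genes, with 1 point per line. CFB has the widest range (3.87) and C1S the narrowest (0.71), and N7 is the lowest line for C3, CFI, CFD and SERPING1.

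N7 also differed from the other lines in some marker genes of other cell types. Of 9 hepatocyte markers, 7 were highest in N7 and 1, TTR, was lowest. Their summed signal was 124785 in N7, while the other lines lay between 4017 and 9942, and the SC arrays had 10221 and 11918. APOA1, an apolipoprotein of liver and yolk sac, reached 112600 in N7, while the other lines lay between 1097 and 6823. ALB, the albumin gene that defines hepatocytes, was well above background on 2 eSLC arrays only, with 23.8 in N7, and FGB was at the floor in N7.

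Of 5 hypoblast and primitive endoderm markers, 3 were highest in N7 (GATA4, HNF4A and PDGFRA) and 1, AFP, was lowest. HNF4A, a transcription factor of liver and visceral endoderm, had 9022 in N7 and at most 23.4 in the other lines. Of 9 trophectoderm markers, 4 were lowest in N7 (GATA3, KRT8, KRT18 and PAG2) and 0 highest, and the summed signal was 372152 in N7 against 552714 to 1128883 in the other lines. Of 8 myeloid markers, 3 were lowest in N7 and 0 highest, with a sum of 12030 against 17075 to 31990. Of 4 pluripotency markers, 2 were highest in N7 (POU5F1 and SOX2), and POU5F1 had 898 in N7 against at most 101 in the other lines. SOX2 was nearly level between N7, at 99.4, and P1, at 96.4, and lower than in the SC arrays, at 459 and 551. Of the 36 named other complement genes, 9 were highest and 4 lowest in N7, with a sum of 100741 against 105746 to 143837. Most of the N7 sum came from CLU (38425), MBL2 (23212), CD46 (20275) and C1QBP (14927), so it says little about the other genes. Some of the 9 genes highest in N7 were near the floor. Whether any of these genes bear on the lower C3, CFI, CFD and SERPING1 of N7 was not tested.

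The genes with the most similar profile were found by the smallest root mean square difference of log2 signals, each centred on its own mean. Over the 8 arrays, SST, a peptide hormone, was most like MASP1 with a difference of 0.45, with 57307 in SC P5, 49839 in SC P10 and 13.3 to 20.6 in the lines. CCN5, a matrix-associated signaling protein, followed at 0.54, and CAV1, the coat protein of caveolae, at 0.59. For C3 the genes were NIPAL1 at 0.26, PIK3CB at 0.27 and F2RL1 at 0.27, all of which were low in SCs and high in every line. For CFB, the gene with the widest range among the lines, they were PHLDB2 at 0.61, PON2 at 0.66 and CALD1 at 0.70.

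Over the 6 eSLC arrays alone, MASP1 was most like CYYR1 at 0.15, MGC137055 at 0.19 and SLC16A10 at 0.20, but its signals in the lines were near the floor, where levels have no order. C3 was most like LOC789175 at 0.10, PSTPIP2 at 0.10 and CORO1B at 0.10. CFB was most like TAGLN, an actin-binding protein of smooth muscle and fibroblasts, at 0.45, TGFB2, a growth factor, at 0.50 and VIL1, an actin-binding protein of microvilli, at 0.50. TAGLN had signals of 782 in N2, 218 in N7, 150 in I9, 68.7 in P1, 61.3 in P4 and 27.9 in I2, which is the order of the lines for CFB down to P1. Among the members themselves, C1S and C3 were closest over the lines, with a difference of 0.40, and CFB and CFI the farthest apart at 1.98. These values describe profiles over 8 or 6 arrays, and many genes that differ between eSLCs and SCs share such profiles.

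The protein-coding genes next to each member in the RefSeq table gave a mixed picture. RTP4, a chaperone gene that interferon induces and that lies beside MASP1, had signals of 10995 in SC P5 and 6343 in SC P10 and of 13.3 to 15.0 in the lines. It was lower in eSLCs by -9.26 ± 0.23 (SE) on the log2 scale (limma, adjusted p = 5.39e-06). Lines I2, I9, N7 and P4 were at the floor, which limits this size and narrows the spread behind the SE and p-value. RTP1, on the other side of MASP1, differed by 0.20 ± 0.18 (limma, adjusted p = 0.394). LPCAT3, a phospholipid acyltransferase gene beside C1S, was higher in eSLCs by 1.66 ± 0.49 (limma, adjusted p = 0.0351), GAR1, a gene of small nucleolar particles beside CFI, was higher by 1.29 ± 0.34 (adjusted p = 0.0243), and CARD6, beside C7, was lower by -2.94 ± 0.74 (adjusted p = 0.0212). GPR108, beside C3, differed by -0.07 ± 0.21 (adjusted p = 0.797). ELANE, a neutrophil protease gene beside CFD, differed by 0.13 ± 0.20 (adjusted p = 0.607). NELFE, on one side of CFB, differed by -0.37 ± 0.18 (adjusted p = 0.142), and C2 lies on the other side. UBE2L6, a ubiquitin-conjugating enzyme gene beside SERPING1, differed by -1.95 ± 1.04 (adjusted p = 0.173).

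A list of 44 other complement genes was compared between eSLCs and SCs with limma, over all genes tested. Of these, 36 were named, 20 were tested, 4 were called higher in eSLCs and 3 lower at an adjusted p under 0.05 and a difference of at least 2-fold. That is 20% higher and 15% lower, where 19.7% of all genes tested were called higher and 15.7% lower, so neither share is a result about the list. The median difference of the 20 genes was 0.10 on the log2 scale, against 0.23 over all genes tested. The changes went both ways, and the called genes are described by role. CD59 and COLEC12, both called lower, passed the filter on low signals through the SC arrays alone, which favours such a call. With a filter on all 8 arrays, 1 gene of the list was called lower.

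Of the 20 genes tested, 8 were regulators, of which 3 were called higher and 1, CD59, lower. Over all genes tested 19.7% were called higher and 15.7% lower, and nothing is read from the small counts by role. SUSD4, a membrane protein that restrains C3 convertases, had signals of 897 in N7, 1287 in I2, 1318 in P4, 1368 in P1, 2080 in N2 and 2805 in I9. SC P5 had 15.8 and SC P10 had 29.9. It was higher by 6.13 ± 0.47 (SE) on the log2 scale (limma, adjusted p = 0.000227), and its other probe gave 1.56. All lines were above the SC arrays.

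CD46, a membrane cofactor for CFI, had signals from 20275 to 32884 in the lines, with a median of 25893, against 11698 and 10566 in the SC arrays. It was higher by 1.24 ± 0.22 (SE) on the log2 scale (limma, adjusted p = 0.0057), and all 4 of its probes were higher by at least 2-fold. Without SC P10 the adjusted p of CD46 was 0.0571, with the SC arrays as 1 sample it was 0.0519, with the series matrix values it was 0.0554, and after quantile normalization the log2 difference was 0.98, under 2-fold. C1QBP, a largely mitochondrial protein that binds C1q, had signals from 11987 to 17018 in the lines against 3494 and 5113 in the SC arrays. It was higher by 1.71 ± 0.21 (SE) on the log2 scale (limma, adjusted p = 0.0014).

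CD59, the membrane protein that blocks the terminal pore, had signals of 556 in SC P5 and 529 in SC P10. Lines N7, P1 and I2 had 55.0, 42.4 and 24.1, and I9, N2 and P4 were at the floor. CD59 was lower by -4.59 ± 0.67 (SE) on the log2 scale (limma, adjusted p = 0.00281), and without SC P5 the adjusted p was 0.051. CD59 passed the filter on low signals through the SC arrays alone, where it was high, which favours a call. Its p-value and call are therefore description only, and the floor limits the size of the difference.

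Of the regulators that were not called, CLU, a secreted chaperone that binds terminal components, had signals from 38425 to 63377 in the lines and of 35913 and 32742 in the SC arrays (limma, log2 difference 0.44 ± 0.24, adjusted p = 0.187). CD55, which speeds the decay of C3 convertases, had a log2 difference of 0.05 ± 0.70 (adjusted p = 0.964), with lines from 47.4 in I2 to 298 in N2 on both sides of the SC arrays. CPN1, a subunit of the carboxypeptidase that trims C3a and C5a, differed by -0.06 ± 0.20 (adjusted p = 0.825). CPN2, its other subunit, was at the floor on all 8 arrays.

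Among genes that activate the cascade, 1 was higher and 1 lower of 4 tested. CFP encodes properdin, which stabilizes the alternative route's C3 convertase. It had signals from 188 in P1 to 443 in I9, against 72.2 and 74.2 in the SC arrays, and was higher by 1.92 ± 0.34 (SE) on the log2 scale (limma, adjusted p = 0.00557). Its other probe gave 0.79, and the adjusted p of CFP was 0.0685 without SC P5, 0.0617 without SC P10 and 0.0642 with the SC arrays as 1 sample. C2, the protease of the classical and lectin routes' C3 convertase, had signals from 28.3 in P4 to 84.8 in N2, against 149 and 94.5 in the SC arrays. It was lower by -1.03 ± 0.29 (SE) on the log2 scale (limma, adjusted p = 0.0322). This call was just inside both thresholds, the other probe of C2 gave -0.10, and with the slide as a block the adjusted p was 0.0535. Leaving out any 1 of I2, I9, N7, P4, SC P5 or SC P10 ended the call of C2, with an adjusted p from 0.0569 to 0.231, and it was 0.115 with the SC arrays as 1 sample.

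C4A, the partner of C2 in that convertase, had signals from 201 to 532 in the lines and of 351 and 315 in the SC arrays, and differed by -0.14 ± 0.25 (limma, adjusted p = 0.68). Cattle carry near-identical copies of C4, so this probe may not tell them apart. MASP2, the other protease of the lectin route, was at or near the floor on all arrays, with at most 15.7 in P1. C5 was named but not tested.

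Of the recognition genes, 4 of 11 were tested and COLEC12 was called lower. COLEC12, a membrane collectin with scavenger activity, had signals of 400 in SC P5 and 218 in SC P10. N7 had 189 and the other lines were at the floor. The log2 difference was -3.84 ± 0.94 (SE) (limma, adjusted p = 0.0187) and is set by the floor in the other 5 lines. COLEC12 passed the filter through the SC arrays alone, where it was high, which favours a call, so its p-value and call are description only. Without N7 all lines were at the floor, so that -4.47 is then a limit. The adjusted p of COLEC12 was 0.0566 without I2, 0.0545 without P1, 0.0646 without P4, 0.171 without SC P5, 0.107 without SC P10 and 0.132 with the SC arrays as 1 sample. MBL2, a plasma lectin that carries MASP proteases, had signals from 10885 to 26607 in the lines and of 19511 and 15421 in the SC arrays (limma, log2 difference 0.08 ± 0.36, adjusted p = 0.864). MBL2 had 3 probes, and only this probe was well above background on any array. COLEC11, another lectin partner of MASP proteases, was above background on 5 eSLC arrays and no SC array, with at most 54.1 in I2 (log2 difference 0.83 ± 0.48, limma, adjusted p = 0.207). C1QC was at most 27.1, in N7.

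The terminal genes C8A, C8B and C9 were tested and none was called. C9 reached 35.2 in N2, and its arrays overlapped between eSLCs and SCs. C8A was above the floor in N7 alone, at 21.3, and C8B was at the floor on all 8 arrays. Of 10 receptors, only ITGB2, the beta chain of complement receptors on leukocytes, was tested. It had signals of 17928 in I9, 13090 in N2, 4655 in P4, 4207 in P1, 2088 in I2 and 1475 in N7, against 780 and 1030 in the SC arrays, and was not called (limma, log2 difference 2.46 ± 1.06, adjusted p = 0.105). Its 6 probes disagreed in sign, with log2 differences from -1.53 to 7.98. Its alpha chain gene ITGAM was above background on 3 eSLC arrays and 1 SC array and was not tested. C3AR1, C5AR1 and C5AR2, the receptors of the small fragments of C3 and C5, were not well above background on any array.

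**Figure D4:**
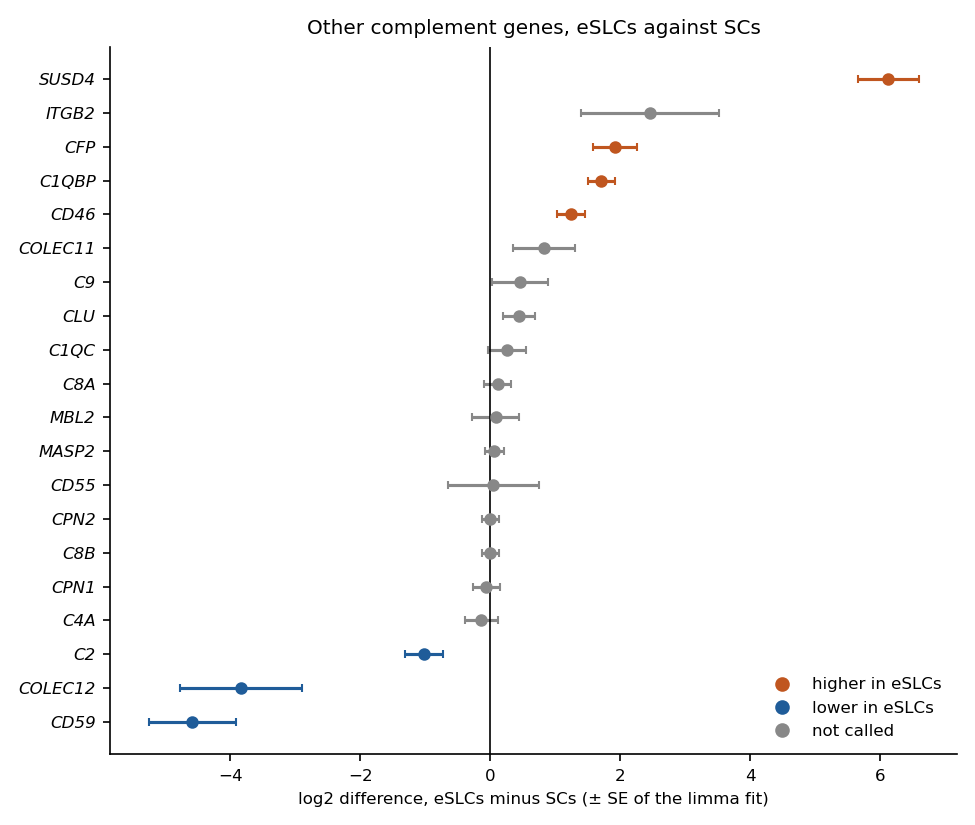
Log2 difference of eSLCs minus SCs (± SE of the limma fit) for the 20 other complement genes tested, coloured by call. SUSD4, CFP, C1QBP and CD46 lie to the right, and CD59, COLEC12 and C2 to the left.

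Markers of other cell types moved with the contrast between eSLCs and SCs. For comparison, limma called 19.7% of all genes tested higher in eSLCs and 15.7% lower. All 10 fibroblast markers were tested and 9 were called lower in eSLCs by limma, with a summed signal from 5504 to 10764 in the lines and of 514873 and 615101 in the SC arrays. Of 9 trophectoderm markers, 8 were called higher, with a summed signal from 372152 to 1128883 in the lines and of 3781 and 5439 in the SC arrays, and CDX2, ELF5 and PAG2 were at the floor in both SC arrays. Of 7 myeloid leukocyte markers tested, PTPRC, CD14 and AIF1 were called higher, with a summed signal from 12030 to 31990 in the lines and of 3638 and 3883 in the SC arrays, while CSF1R and CD163 were at the floor in all 6 lines. CDX2, ELF5, PAG2 and AIF1 passed the filter on low signals through the eSLC arrays alone, and POSTN through the SC arrays alone. Each was high where it passed, which favours such a call, so their calls are description only. Whether cells of these types contribute to the signals of the complement genes was not tested.

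Of 6 hepatocyte markers tested, TTR was called lower and none was called higher. Of 5 hypoblast and primitive endoderm markers tested, PDGFRA was called lower and none was called higher, and the summed signal was 16042 in N7, 2074 to 3134 in the other lines and 7961 and 9070 in the SC arrays. Of 5 endothelial markers tested, PECAM1 was called higher, with a summed signal from 135 to 367 in the lines and of 128 and 151 in the SC arrays, and CDH5 was at the floor on all arrays. Of 4 pluripotency markers, LIN28A was called higher and SOX2 lower, and the summed signal was 297 to 1315 in the lines and 501 and 603 in the SC arrays. PECAM1 and LIN28A passed the filter on low signals through the eSLC arrays alone, where they were high, so their calls are description only. MASP1, C1S and CFB were thus lower where most fibroblast markers were lower, and C3, CFI, CFD and SERPING1 were higher where most trophectoderm markers were higher, and the part of cell type in these differences was not tested.

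Of 6 transcription factors known to act at complement genes, all were tested, and 3 were called lower in eSLCs and none higher. Over all genes tested, limma called 15.7% lower and 19.7% higher. The list was chosen with earlier results known, so nothing is read from its count. IRF1, an interferon-induced factor, had signals of 10324 in SC P5 and 4370 in SC P10 and from 13.3 in I2 and P1 to 87.1 in N7 in the lines, a log2 difference of -7.77. STAT3, the factor of the acute phase response, had 2853 and 2799 in the SC arrays and 17.5 in I9 to 77.0 in N7 in the lines, a log2 difference of -6.72. RELA, a subunit of NF-kappa B, differed by -1.11. CEBPB and CEBPD, factors of acute phase genes, differed by 0.03 and -0.01 and were not called, nor was NFKB1 at -0.33. In the lines, C3, CFI, CFD and SERPING1 were higher and MASP1, C1S and CFB lower than in SCs. IRF1, STAT3 and RELA were called lower in the same comparison, and NFKB1, CEBPB and CEBPD were not called. Whether these levels are linked was not tested.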

How the data were processed

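The authors scanned 8 one-colour arrays, quantified them with Feature Extraction software and normalized them with GeneSpring GX. They deposited linear signal intensities per spot for each array, not normalized between arrays, and a table of normalized intensities. The members and lists were chosen with earlier results of these data known, and some genes of the lists are not reported here and were left out of their counts. The background-subtracted signal was used because the processed signal was out of step with it on 6 arrays (Spearman correlation over probes 0.16 to 0.22, against 0.97 on the other 2). Control spots and 1 to 11 outlier spots per array were dropped, and no spot was saturated. Spots of a probe were averaged, divided by the array's 75th percentile, raised to the floor and taken to log2. RefSeq accessions named 26743 of 43653 probes, and a gene is represented by its brightest probe (mean log2 over the 8 arrays). A linear model with 4 condition means was fitted to all arrays (limma 3.58.1, R 4.3.3) with moderated variances and Benjamini-Hochberg adjustment over 10956 genes. The eSLC value is the mean of the 3 origin means. Genes were called at an adjusted p under 0.05 and at least 2-fold, and all members and every called gene of the list of other complement genes are named. Further genes of the lists were named after their values were seen. Simulated data with known changes were used to check the fit. The number of arrays limits the precision. The array design uses another genome build than the RefSeq table (ARS-UCD2.0), which was used for names and neighbours only. Figures were drawn with matplotlib version 3.10.9. Alternatives were other scalings, background corrections, floors, filters and probe rules, the series matrix values, the slide as a block, the methods' t-test, SC arrays taken as 1 sample, and each array left out.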

Additional observations from a re-analysis of the deposited data

Results flagged for a closer look

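For COLEC12, line N7 had a signal of 189 and the other 5 lines were at the floor, so that the gap between N7 and the nearest other line was the whole range of the lines (a ratio of 1). This ratio follows from the floor and is no test. Of 14 genes checked for a line far from the others (7 members and 7 other complement genes), 1 was found, and no member was.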

How the results depend on the processing

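The differences of the 7 members between eSLCs and SCs kept their sign under all alternatives but 1, the difference of C1S at 0.45 with the processed signal, which is out of step with the other signals on 6 arrays. In sizes, 128 of 147 values moved by less than the spread between replicates. Leaving out 1 array moved CFB to between -3.71 and -2.46, and moved no other member by over 1.5 times. Normexp (on the median signals, since mean signals are not in the files used here) brought MASP1 to -9.57, C3 to 4.65, CFB to -2.02, CFI to 2.90 and CFD to 2.69. The mean of all probes brought C1S to -2.83, C3 to 2.69, CFB to -1.40, CFI to 3.57 and CFD to 2.32, and the processed signal brought MASP1 to -3.11 and C3 to 3.28. No member was called between origins under any alternative, the methods' t-test before and after Benjamini-Hochberg adjustment included (a test added after seeing the data). Since the main fit called no gene at all between origins, this is not read as stability. The other complement genes called higher and lower numbered 4 and 3, and 1 and 2 with the processed signal, 4 and 1 with a filter on all 8 arrays, and 2 and 1 with the SC arrays as 1 sample. Leaving out each array, where the lone array of a condition is assumed to vary like the others, gave 2 to 5 higher and 0 to 3 lower, with 3 and 0 without SC P5 (1 at least 2-fold lower by limma at an unadjusted p under 0.05), 2 and 1 without SC P10, 4 and 1 without I2 and 4 and 1 without P4. SUSD4 was called under all 19 alternatives, C1QBP under 18, CD59 under 16, CFP under 15, CD46 under 14, COLEC12 under 11 and C2 under 6. With the processed signal the adjusted p was 0.0129 for SUSD4 and from 0.586 to 0.989 for the other 6. The 2 genes called lower with that signal were therefore genes other than CD59, COLEC12 and C2. The adjusted p of C2 ran from 0.0208 to 0.774. CD59 and COLEC12 could not be tested with the filter on all 8 arrays, because they were not above background on every array. Other causes were not tested. Signal over background limits MASP1, CFB, CD59 and COLEC12 in the lines and CFI and CFD in SCs, where levels near the floor have no order. No paired analysis was possible because the labels give no replicate numbers that link samples of different groups.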
